A study of Notophthalmus viridescens with 18 samples.

Results

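Newt myotubes were compared with the proliferating cells they form from, using 6 of the 18 RNA-seq libraries of the series, namely every library labelled as myotubes in fresh 0.25% serum (MT_0.25%, 3 libraries) and every library labelled as proliferating cells (PRO, 3 libraries). All libraries came from wild-type A1 cells, which were derived from limb mesenchyme of the newt Notophthalmus viridescens and can form muscle. PRO cells were kept in 10% serum with the DMSO vehicle, were subcultured to avoid confluence and were collected on day 12. MT_0.25% cultures were plated densely, spent 5 days in 0.25% serum and a further 3 days in fresh 0.25% serum medium, and were collected on day 8. The myotubes alone were purified by size, passing a 100 µm mesh and staying on a mesh given as 30 µm in the labels and as slightly coarser in the study's methods, and their RNA was extracted with the micro version of the kit used for the cells. Serum, day, density, filtering and extraction kit therefore change together with the group and cannot be told apart. Where cells made senescent with etoposide and nutlin (SEN, 3 libraries, day 12, unfiltered) are mentioned, they serve as an outside reference. Whether replicates were separate cultures was not given in the sources used here, so the p-values measure the spread between these libraries, which may be technical.

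When serum is withdrawn, myogenic cells leave the cell cycle and fuse into multinucleate myotubes that assemble sarcomeres, the repeating units of actin thin filaments and myosin thick filaments that shorten when calcium is released. Myogenic regulatory factors of the basic helix-loop-helix family drive this change, with Myf5 typical of committed precursors and myogenin of cells entering terminal differentiation. Newt myotubes are studied because, unlike those of mammals, they can be induced to re-enter the cell cycle and to fragment into mononucleate cells during limb regeneration.

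Each library is a table of 27395 entries of a de novo transcriptome, here called transcripts, with no genome position. Beside its identifier a transcript carries the name of its best protein match in other species, as listed in the study's supplementary tables. Some named entries are short in the libraries compared, such as those of ryanodine receptor 1 (148 to 218 bases), Rbm24 (87 to 120) and Fgf8 (101 to 107). Such names rest on the closest hit alone. In those tables the printed identifiers were not those of the entries that carry the row's values, so each name was given to the single entry whose scaled counts equal the values of the row. This named 3548 entries, of which 3257 were tested. The open reading frame given with a name ended within the length of its entry for 487 of 492 entries that could be examined in the MT_0.25% table, and for 392 of the 476 that could be examined when the printed identifiers were used. Names from the MT_0.25% table belong only to transcripts that the study had found higher in MT_0.25% than in PRO, so their direction here is a description. Names from the SEN table belong to transcripts that the study had found higher in SEN than in the same PRO libraries, which favours transcripts that were low in PRO, and the heat-map panels were chosen by the study on these samples. Estimated reads per library ran from 37725006 to 44402253 in PRO and from 35247127 to 52015212 in MT_0.25%. Entries with at least 10 reads numbered 18007 to 18810 in PRO and 21170 to 23606 in MT_0.25%, and the 10 largest entries held 14.9% to 15.8% of PRO reads and 22.3% to 24.6% of MT_0.25% reads.

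Values per library are given as normalised CPM, the reads of a transcript relative to the TMM-scaled size of its library. CPM is not divided by length and is therefore compared between libraries for the same transcript only. The length given for an entry differed between libraries of the series for 20531 of the 27395 entries, which CPM does not take into account. A transcript was called when the quasi-likelihood test of edgeR, fitted over all 18 libraries, gave a Benjamini-Hochberg adjusted p below 0.05. Of 23107 transcripts tested, 16114 were called, 69.7% of them all, with 8779 higher in MT_0.25% (38.0%) and 7335 lower (31.7%). Every MT_0.25% library lay above every PRO library for 40.0% of the transcripts and below for 30.7%. A change of at least 4-fold was seen for 3661 of the called transcripts that were higher and for 1699 that were lower.

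The direction of many calls differed between edgeR on counts and limma on TPM, which differ in model, length division and scaling at once, and the fold changes varied with the level of the transcript. RLE in place of TMM scaling within edgeR left 8360 higher and 7747 lower. TMM factors were 0.617 to 0.710 in PRO and 1.09 to 1.51 in MT_0.25%, and the median log2 fold change over all transcripts was 0.20 with TMM scaling and 0.76 with limma on log2(TPM + 1), where TPM is the length-scaled abundance of the deposited tables. In the decile of transcripts with the highest mean TPM, the median log2 fold change in edgeR was -1.22, with 74.2% called lower and 12.8% higher, whereas it was 0.92 in the second lowest decile. On the TPM scale limma called 15527 transcripts higher (67.2%) and 1878 lower (8.13%), so that 89.2% of its calls were rises, against 54.5% in edgeR. Of the edgeR calls, 8698 rises and 1874 falls were also called by limma in the same direction, 1321 edgeR falls were limma rises, 4140 edgeR falls were not called by limma, and 0 edgeR rises were limma falls. Every fall described below that was not also called on the TPM scale is named as such, and a rise or fall is read relative to these medians.

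**Figure D1:**
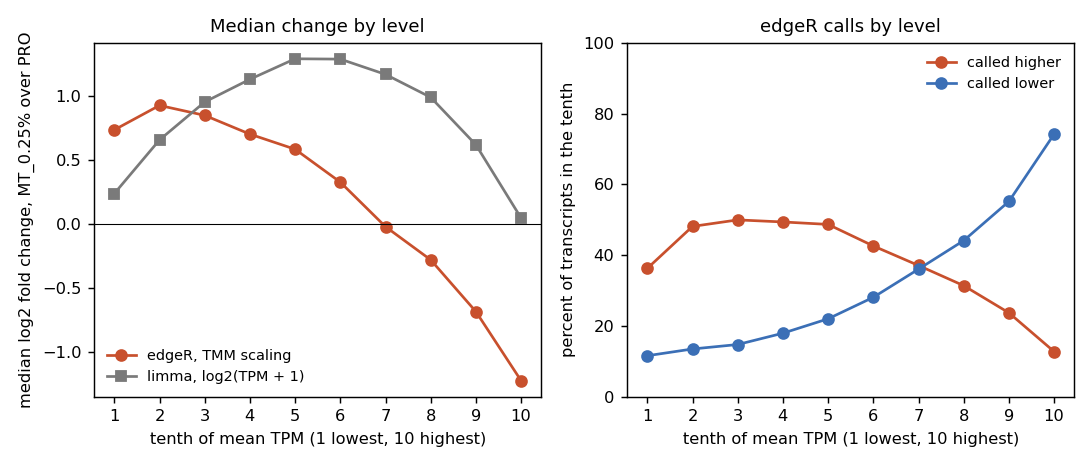
Left, median log2 fold change of MT_0.25% over PRO for transcripts sorted into deciles by mean TPM, from edgeR with TMM scaling (circles) and limma on log2(TPM + 1) (squares); right, percent of the transcripts of each decile called higher or lower by edgeR. In edgeR the median passed from above to below 0 with rising level and reached -1.22 in the top decile, where the limma median was 0.05.

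Transcripts of the contractile apparatus were higher in MT_0.25% than in PRO almost without exception. Over 6 lists of muscle transcripts (thin filament, thick filament, Z-disc and cytoskeleton, calcium handling, neuromuscular junction, and muscle transcription and splicing factors) 67 of 72 members were called higher (38.0% of all transcripts were), 1 was lower (Myf5) and 4 were not called, and the median log2 fold change was 3.74, or 2.27 on the TPM scale. Of the 72 members, 56 had a name from the MT_0.25% table or a panel, some of them also in the SEN table. Of these 56, 55 were higher, a direction that the MT_0.25% table fixes for most of them. Another 16 were named only through the SEN table, and 12 of them were called higher than in PRO with a median log2 fold change of 1.07. Against SEN, in a comparison that uses the same myotube libraries, 0 of these 16 were called higher and 9 were called lower, while the other 56 were all called higher. That difference is fixed in part by the naming, which favours transcripts high in SEN for the 16 and high in MT_0.25% for most of the 56. The 10 markers of skeletal muscle held 11 entries, all called higher, a direction that the way they were named or chosen fixes, so they are no independent check of the labels. Their summed level was 70.1, 87.9 and 84.8 normalised CPM in the PRO libraries and 3823, 2726 and 3034 in the MT_0.25% libraries, with no overlap of the groups. In bulk RNA, fewer cells of a type and less RNA per cell cannot be told apart.

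**Figure D2:**
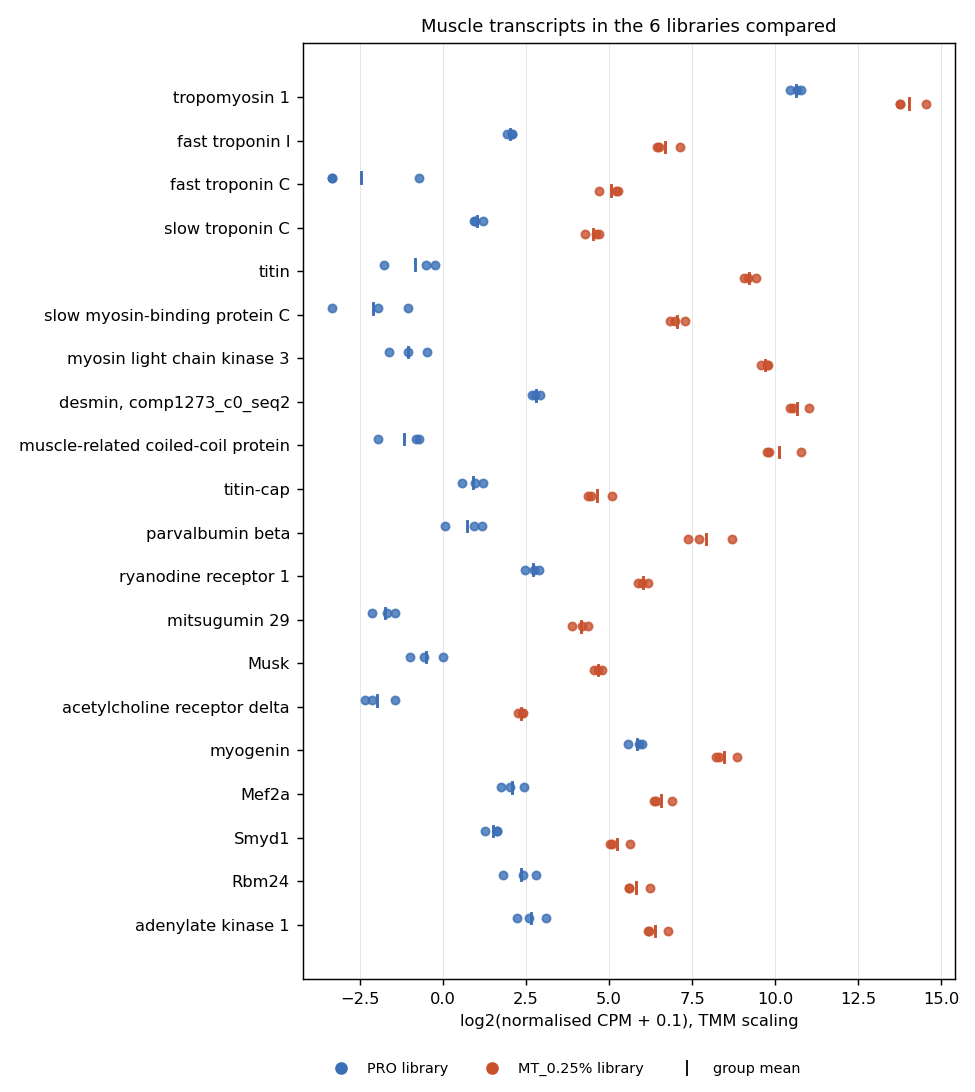
Level of 20 muscle transcripts in each library, as log2(normalised CPM + 0.1), for 3 PRO libraries (blue) and 3 MT_0.25% libraries (red), with vertical bars at the group means of the log2 values. No MT_0.25% library overlapped a PRO library for any of the transcripts drawn. Of all transcripts, 40.0% lay above PRO without overlap and 30.7% below. Those drawn were chosen with earlier results of these data known, so their separation is a description. Titin, the myosin light chain kinase 3 hit and the muscle-related coiled-coil protein were below 1 normalised CPM in every PRO library.

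All 7 thin filament transcripts were called higher in MT_0.25% (38.0% of all transcripts were), with a median log2 fold change of 3.55 (3.502 on the TPM scale). Names of 6 of the 7 appear in the MT_0.25% table, which fixed their direction. The 7 include an entry with a fluke troponin I as its closest hit (comp1315731_c0_seq1), whose organism of origin was not examined. Tropomyosin 1 (comp18_c0_seq1), which winds along actin and with troponin gates the access of myosin, stood at 1618, 1745 and 1389.6 normalised CPM in PRO and at 23646, 13828 and 13713 in MT_0.25% (log2 fold change 3.43 ± 0.30 SE, edgeR adjusted p = 4.1e-09). It was already abundant in PRO, at 445 ± 64.9 TPM (SD, n = 3) against 11479 ± 1534 in MT_0.25%. Fast troponin C (comp73_c0_seq1), the calcium sensor of fast fibres, had no read in PRO 1 and PRO 2. Its levels were 0, 0 and 0.511 normalised CPM in PRO and 38.5, 25.6 and 36.9 in MT_0.25% (log2 fold change 7.55 ± 0.57 SE, edgeR adjusted p = 1.2e-09). Slow troponin C (comp1416_c0_seq1) was measured at 2.199, 1.805 and 1.88 and 25.6, 24.2 and 19.4 normalised CPM, respectively (log2 fold change 3.55 ± 0.24 SE, edgeR adjusted p = 1.0e-10). For fast troponin I (comp81_c0_seq4), the inhibitory subunit, the values were 4.11, 3.74 and 4.09 in PRO and 141.2, 90.4 and 86.5 in MT_0.25% (log2 fold change 4.73 ± 0.24 SE, edgeR adjusted p = 1.3e-12). Both the fast and the slow forms of troponin therefore rose, and the 6 libraries separated completely for each of these 4 transcripts. Of all transcripts, 40.0% lay above PRO without overlap.

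All 7 thick filament transcripts were called higher too (38.0% of all transcripts were), and names of 6 of the 7 appear in the MT_0.25% table, which fixed their direction. The median log2 fold change of the 7 was 5.25 (1.93 on the TPM scale). The order of the thin and thick filament medians is thus not the same in edgeR and on the TPM scale. Titin (comp121524_c0_seq1), the elastic protein that spans the sarcomere from Z-disc to M-band, rose from 0.191, 0.602 and 0.7501 normalised CPM in PRO to 583, 536 and 684 in MT_0.25% (log2 fold change 10.21 ± 0.43 SE, edgeR adjusted p = 9.3e-14). Slow myosin-binding protein C (comp8222_c0_seq2), which tethers myosin heads, rose from 0.159, 0.387 and 0 to 156, 115 and 127 (log2 fold change 9.597 ± 0.54 SE, edgeR adjusted p = 6.8e-12). The transcript whose closest hit is myosin light chain kinase 3 (comp2823_c0_seq1) rose from 0.223, 0.387 and 0.614 to 887, 759 and 859.6 (log2 fold change 10.996 ± 0.34 SE, edgeR adjusted p = 1.6e-15). The length that the deposited tables give this entry ran from 5833 to 19020 bases between the 6 libraries, and its name rests on the closest hit alone. For each of the 3 every myotube library was above every PRO library, which held for 40.0% of all transcripts. In PRO they were close to the limit of detection, with 42 titin reads over the 3 libraries against 113120 in MT_0.25%.

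Z-disc and cytoskeletal transcripts were called higher for 17 of 18 members (38.0% of all transcripts were), with a median log2 fold change of 3.996. Names of 14 of the 18 appear in the MT_0.25% table, which fixed their direction, so the count is a description. Both entries named desmin, the intermediate filament that links Z-discs, rose. The larger of them (comp1273_c0_seq2) went from 6.79, 6.36 and 7.43 normalised CPM to 2059, 1397 and 1497 (log2 fold change 7.91 ± 0.29 SE, edgeR adjusted p = 1.8e-14) and the shorter (comp654_c0_seq1) from 1.91, 1.93 and 2.83 to 355, 226 and 230 (log2 fold change 6.92 ± 0.44 SE, edgeR adjusted p = 4.2e-11). Reads of entries with the same name may be divided between them by the quantification, so the value of each as a separate gene is uncertain. Muscle-related coiled-coil protein (comp33604_c1_seq1), a caveolar protein of striated muscle, had the largest rise of all transcripts with a descriptive name, from 0.159, 0.473 and 0.511 to 1764, 892 and 868 normalised CPM (log2 fold change 11.61 ± 0.47 SE, edgeR adjusted p = 5.7e-14). PDZ and LIM domain 3 (comp9940_c0_seq1), which binds alpha-actinin at the Z-disc, rose from 13.3, 9.71 and 10.5 to 115, 82.9 and 95.2 (log2 fold change 3.12 ± 0.24 SE, edgeR adjusted p = 4.5e-10). The member that did not pass was syntrophin beta 1 (comp23485_c0_seq1), a dystrophin-associated adaptor named through the SEN table, at 1.59, 2.58 and 2.56 in PRO and 2.65, 3.15 and 2.78 in MT_0.25% (edgeR adjusted p = 0.16).

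Calcium release and uptake transcripts were called higher for 14 of 16 members (median log2 fold change 3.48), where 38.0% of all transcripts were. Names of 10 of the 16 appear in the MT_0.25% table, which fixed their direction, so the count is a description. The 16 include an entry with a fluke ryanodine receptor as its closest hit (comp2223626_c0_seq1), whose organism of origin was not examined. Parvalbumin beta (comp98_c0_seq1), a cytosolic calcium buffer of fast fibres, rose from 0.956, 1.805 and 2.15 to 413, 209 and 164 normalised CPM (log2 fold change 7.33 ± 0.43 SE, edgeR adjusted p = 1.1e-11). Ryanodine receptor 1 (comp16422_c0_seq1), the calcium release channel of the sarcoplasmic reticulum, rose from 6.56, 7.305 and 5.49 to 63.9, 58.02 and 72.2 (log2 fold change 3.33 ± 0.18 SE, edgeR adjusted p = 4.2e-12). Entries named as the fast-twitch calcium pump, which returns calcium to the reticulum, did not move alike. The first (comp349_c0_seq2) had 9 reads over the 3 PRO libraries and rose from 0.255, 0 and 0.0341 to 13.5, 14.2 and 20.8 normalised CPM (log2 fold change 7.22 ± 0.55 SE, edgeR adjusted p = 4.9e-10), whereas the other (comp5019_c0_seq1) was expressed in both groups, at 50.8, 54.7 and 26.8 and 64.9, 75.1 and 67.5 (log2 fold change 0.65 ± 0.24 SE, edgeR adjusted p = 0.02), and its call was lost without PRO 3 (log2 fold change 0.38) or MT_0.25% 2 (0.58). Mitsugumin 29 (comp2423_c1_seq1), a protein of the junction between the surface membrane and the reticulum, rose from 0.127, 0.215 and 0.273 to 20.4, 14.8 and 18.3 (log2 fold change 6.44 ± 0.29 SE, edgeR adjusted p = 2.1e-13). The libraries separated for all of these, the second pump entry included, although PRO 3 was well below the other PRO libraries for that entry. Separation above PRO held for 40.0% of all transcripts. Members that did not pass were calcium channel beta 4 (1.66, 1.25 and 0.784 in PRO, 1.09, 0.911 and 1.31 in MT_0.25%) and a trimeric intracellular cation channel (0.287, 0.215 and 0.375 and 0.1301, 0.1301 and 0.191).

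Of 10 transcripts of the neuromuscular junction and of membrane excitability, 9 were called higher (38.0% of all transcripts were), with a median log2 fold change of 3.81 (3.30 with the member that had no PRO read placed at its lower bound). Names of 7 of the 10 appear in the MT_0.25% table, which fixed their direction, so the count is a description. Musk (comp196700_c0_seq1), the receptor kinase that organises the postsynaptic membrane, rose from 0.574, 0.902 and 0.409 to 25.3, 23.4 and 27.6 normalised CPM (log2 fold change 5.36 ± 0.29 SE, edgeR adjusted p = 3.6e-12). The delta subunit of the acetylcholine receptor (comp1988594_c0_seq1) rose from 0.0956, 0.129 and 0.273 to 5.26, 4.66 and 5.16 (log2 fold change 4.89 ± 0.39 SE, edgeR adjusted p = 8.6e-10). The inward rectifier potassium channel Kcnj5 (comp572018_c0_seq1) rose from 0.892, 0.559 and 1.26 to 17.6, 15.3 and 19.4 (log2 fold change 4.25 ± 0.27 SE, edgeR adjusted p = 4.0e-11). Sodium pump alpha 1 (comp697_c0_seq1), which most animal cells express, was at 59.2, 55.2 and 68.7 in PRO and 57.4, 75.7 and 73.5 in MT_0.25% and was not called (edgeR adjusted p = 0.46).

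Of 14 muscle transcription and splicing factors 13 were called higher (38.0% of all transcripts were), with a median log2 fold change of 3.65, and Myf5 was called lower. Names of 10 of the 14 appear in the MT_0.25% table, which fixed their direction, so the count is a description. Myogenin (comp799573_c0_seq1) rose from 47.9, 64.03 and 59.8 normalised CPM in PRO to 461, 299.5 and 318 in MT_0.25% (log2 fold change 2.65 ± 0.24 SE, edgeR adjusted p = 4.8e-09), and the PRO level was far from 0, at 46.4 ± 2.98 TPM (SD, n = 3). Myf5 (comp460329_c0_seq1) went the other way in edgeR, from 458, 569.6 and 289 to 168, 166 and 195 normalised CPM (log2 fold change -1.31 ± 0.22 SE, edgeR adjusted p = 1.9e-05), with no overlap of the libraries. On the TPM scale this fall was not seen, with 212 ± 64.7 TPM in PRO and 215 ± 59.96 in MT_0.25% (limma log2 fold change 0.03, adjusted p = 0.9). Myf5 was thus lower in edgeR only, while myogenin was higher in both (limma log2 fold change 4.103). Of the other members, Mef2a (comp43394_c0_seq1), a MADS-box partner of the myogenic factors, rose from 3.95, 3.27 and 5.35 to 119, 82.1 and 85.2 (log2 fold change 4.502 ± 0.25 SE, edgeR adjusted p = 6.2e-12). Smyd1 (comp11495_c0_seq1), a muscle methyltransferase needed for myofibril assembly, rose from 2.29, 2.96 and 2.97 to 48.98, 33.9 and 32.7 (log2 fold change 3.81 ± 0.26 SE, edgeR adjusted p = 1.2e-10). The splicing regulator Rbm24 (comp31199_c0_seq3) rose from 5.19, 6.92 and 3.38 to 75.5, 48.7 and 48 (log2 fold change 3.48 ± 0.35 SE, edgeR adjusted p = 2.7e-08), and Tead4 (comp37554_c0_seq3), a factor that binds muscle promoter elements, from 10.9, 10.5 and 19.6 to 134, 105 and 104 (log2 fold change 3.07 ± 0.24 SE, edgeR adjusted p = 8.6e-10). Tmem182 (comp17356_c0_seq1), a membrane protein of muscle, rose from 2.49, 2.62 and 4.296 to 588, 315 and 312 (log2 fold change 7.01 ± 0.38 SE, edgeR adjusted p = 3.2e-12). None of these 5 overlapped between the groups, where 40.0% of all transcripts lay above PRO without overlap, and each was highest in MT_0.25% 1. Mef2a, Smyd1 and Tead4 were named after their values were seen.

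The myotube libraries were not equal. Of the 67 muscle members called higher, 42 had their highest level in MT_0.25% 1, 21 in MT_0.25% 3 and 4 in MT_0.25% 2, and the summed thin filament level was 23859 normalised CPM in MT_0.25% 1 against 13974 and 13863 in the others. MT_0.25% 1 was also lowest of the 3 for 15 of 17 cell-division transcripts and for Timp1.1, and MT_0.25% 2 was highest for 16 of those 17. Whether the purity of the myotubes differed between libraries was not tested. Without MT_0.25% 1, 67 muscle members were still called higher, with a median log2 fold change of 3.59, and Myf5 lower.

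Energy metabolism transcripts were called higher for 11 of 14 members, with 2 lower and a median log2 fold change of 3.13 (3.102 with the member at 0 reads in PRO placed at its bound). By comparison, 38.0% of all transcripts were called higher and 31.7% lower. Names of 8 of the 14 appear in the MT_0.25% table, which fixed their direction. Names of 6 appear in the SEN table, and 1 member, muscle creatine kinase, was named through a panel that the study chose on these samples. The count of rises is therefore a description and cannot be read against the share over all transcripts. Muscle creatine kinase (comp17_c0_seq1), which buffers ATP in working muscle, rose from 0.605, 1.07 and 0.989 to 55.7, 43.6 and 55.5 normalised CPM (log2 fold change 5.87 ± 0.31 SE, edgeR adjusted p = 2.3e-12). Adenylate kinase 1 (comp488_c0_seq1), which balances adenine nucleotides, rose from 4.62, 8.47 and 5.97 to 109, 73.02 and 72.3 (log2 fold change 3.74 ± 0.28 SE, edgeR adjusted p = 4.6e-10), and glutamine synthetase (comp406409_c0_seq4) from 1.94, 1.504 and 2.15 to 17.3, 14.6 and 15.7 (log2 fold change 3.08 ± 0.31 SE, edgeR adjusted p = 3.6e-08). Hexokinase domain containing 1 (comp42315_c0_seq1), which phosphorylates glucose and was named through the SEN table, rose from 7.33, 7.99 and 4.91 to 31.2, 25.3 and 22.7 (log2 fold change 1.97 ± 0.22 SE, edgeR adjusted p = 9.7e-08). The 2 members called lower, an enolase entry (comp8911629_c0_seq1) at log2 fold change -1.48 and AMP deaminase (comp17223_c0_seq1) at -1.22, were called higher on the TPM scale (0.93 and 0.72), and a second enolase entry (comp7105_c0_seq1) was called higher under both.

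Among 16 heat shock proteins and chaperones, 11 were called higher and 1 lower (median log2 fold change 2.47), where 38.0% and 31.7% of all transcripts were. Names of 8 of the 16 appear in the MT_0.25% table, which fixed their direction, and names of 9 in the SEN table. The count of rises is therefore a description and cannot be read against the share over all transcripts. The small heat shock protein Hsp25 (comp40423_c0_seq1) rose from 0.733, 0.602 and 1.06 to 128, 82.9 and 77.3 normalised CPM (log2 fold change 6.896 ± 0.31 SE, edgeR adjusted p = 1.8e-13), Hspb11 (comp34579_c0_seq1) from 18.3, 25.8 and 15.8 to 272, 189 and 172 (log2 fold change 3.404 ± 0.26 SE, edgeR adjusted p = 5.5e-10), and the transcript with Dnajc1, a J-domain co-chaperone, as its closest hit (comp1484073_c0_seq1) from 0.159, 0.816 and 0.443 to 448, 258 and 248 (log2 fold change 9.45 ± 0.45 SE, edgeR adjusted p = 5.2e-13). The member called lower was Hspa12b (comp92950_c0_seq1), with 36 reads over the PRO libraries, which was not called on the TPM scale. The entry named Hspa4l (comp931308_c0_seq1) overlapped between groups, at 39.1, 43.3 and 87.97 and 84.3, 91.8 and 75.5 (edgeR adjusted p = 0.046, a call lost without PRO 1, PRO 2, MT_0.25% 1 or MT_0.25% 2, where the log2 fold change was 0.35, 0.39, 0.53 and 0.49). Dnajb9 (12.7, 14.4 and 28.6 against 15.4, 15.96 and 11.8), 2 of the 3 Hsp70 entries and 1 of the 2 Unc45a entries were not called, all of them named through the SEN table.

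Extracellular matrix and mesenchyme transcripts, of which 23 of 25 carry names of the SEN table, divided between 14 higher, 3 lower and 8 not called, with a median log2 fold change of 0.92 against 0.20 over all transcripts. Over all transcripts 38.0% were called higher and 31.7% lower. The SEN table favours transcripts that were low in PRO. The counts and the median of this list are therefore a description and cannot be read against those of all transcripts. Tenascin C (comp26997_c1_seq1), a matrix glycoprotein of remodelling limb tissue, rose from 69.2, 49.8 and 32.7 to 322, 287 and 288 normalised CPM (log2 fold change 2.56 ± 0.25 SE, edgeR adjusted p = 1.6e-08). Collagen XXVIII alpha 1 (comp699575_c0_seq1) rose from 1.05, 0.988 and 1.64 to 24.4, 18.7 and 24.6 (log2 fold change 4.19 ± 0.22 SE, edgeR adjusted p = 2.4e-12) and laminin beta 1 (comp896521_c0_seq1), a basement membrane chain, from 9.97, 7.82 and 19.9 to 42.9, 36.6 and 33.6 (log2 fold change 1.58 ± 0.28 SE, edgeR adjusted p = 5.2e-05). Integrin alpha 6 (comp19767_c0_seq4), a laminin receptor subunit, rose from 0.127, 0.129 and 0.136 to 5.49, 4.32 and 4.296 (log2 fold change 5.13 ± 0.34 SE, edgeR adjusted p = 7.4e-11). The members called lower were integrin alpha 11 (comp90780_c1_seq1), a collagen receptor subunit of fibroblasts (5.96, 5.97 and 3.65 to 1.25, 1.52 and 1.17), cartilage oligomeric matrix protein (14.3, 10.6 and 11.4 to 2.34, 5.81 and 4.97) and procollagen lysyl hydroxylase 1 (18.04, 24.4 and 16.5 to 10.8, 15.1 and 11.5). None of the 3 was called lower on the TPM scale, and the last was called higher there. The only entry named as hemoglobin was at 9.65, 12.4 and 17.3 normalised CPM in PRO and 11.8, 12.8 and 10.4 in MT_0.25%, and its libraries overlapped.

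**Figure D3:**
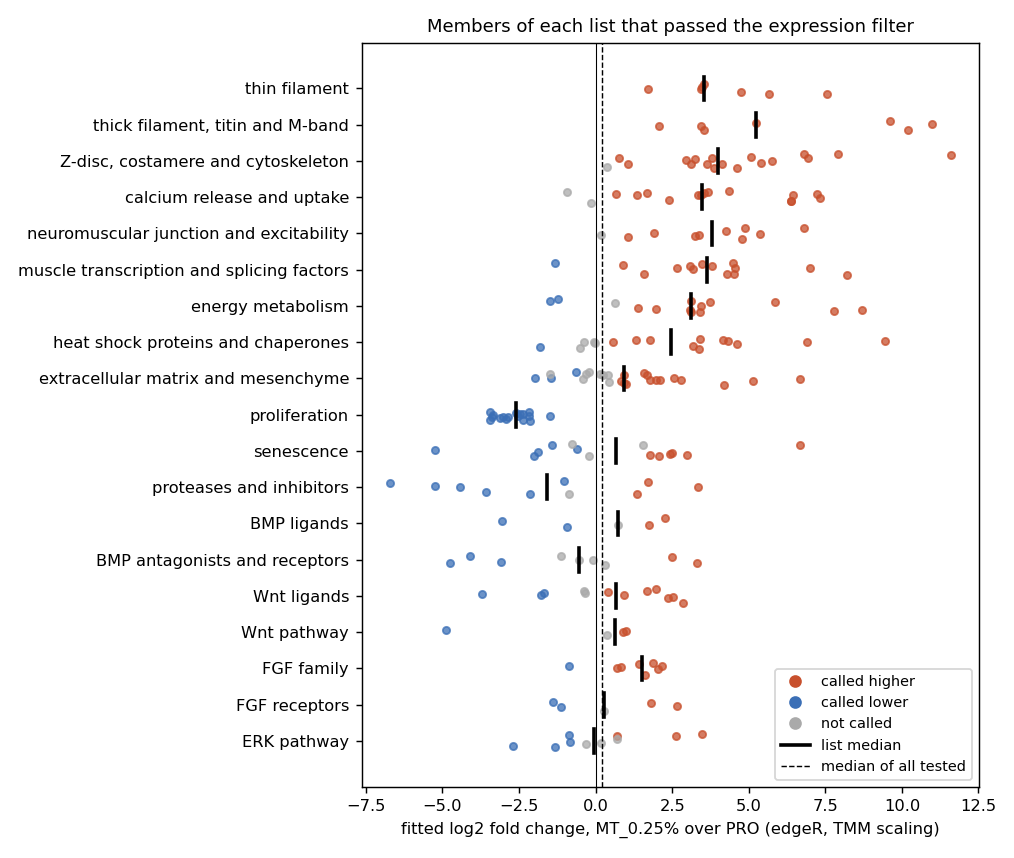
Fitted log2 fold change of MT_0.25% over PRO for each tested member of 19 lists, coloured by edgeR call, with the list median as a black bar and the median of all tested transcripts (0.20) as a dashed line. The muscle lists lay almost wholly above 0, all 17 proliferation members lay below it, and the lists of proteases and of secreted signals spread to both sides.

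Cell-division transcripts were lower in MT_0.25%. All 17 members of the proliferation panel, which the study had chosen on these samples, were called lower with no overlap of the libraries, where 31.7% of all transcripts were called lower and 30.7% lay below without overlap, with a median log2 fold change of -2.60 and a range from -3.46 to -1.48. On the TPM scale 14 were called lower and 0 higher. The panel summed to 987, 1000.4 and 840 normalised CPM in PRO and 94.9, 187 and 120.0 in MT_0.25% (two-sided exact permutation p = 0.1, the smallest that 3 against 3 libraries allow). Cdk1a (comp35510_c0_seq1), the kinase that starts mitosis, went from 94.5, 139 and 129 to 7.81, 16.3 and 8.76 normalised CPM (log2 fold change -3.46 ± 0.32 SE, edgeR adjusted p = 7.7e-09). Its partner cyclin Ccnb1 (comp125600_c0_seq1) went from 95.9, 127 and 105 to 8.61, 19.6 and 11.9 (log2 fold change -3.03 ± 0.25 SE, edgeR adjusted p = 1.8e-09). Cdc20 (comp74665_c0_seq2), which activates the anaphase-promoting complex, went from 141.3, 171 and 111.3 to 7.36, 22.5 and 11.8 (log2 fold change -3.34 ± 0.35 SE, edgeR adjusted p = 4.7e-08). Replication transcripts fell too, with the helicase subunit Mcm7 (comp18947_c0_seq1) at 252, 118 and 136 in PRO and 18.9, 41.6 and 26.3 in MT_0.25% (log2 fold change -2.54 ± 0.28 SE, edgeR adjusted p = 1.2e-07) and the flap endonuclease Fen1 (comp31218_c0_seq1) at 59.6, 68.8 and 57.9 and 16.1, 15.2 and 11.3 (log2 fold change -2.13 ± 0.21 SE, edgeR adjusted p = 2.8e-08). The smallest fall was that of the mitotic kinesin Kif22 (comp144592_c0_seq4), from 4.91, 2.06 and 2.83 to 0.703, 1.55 and 1.22 (log2 fold change -1.48), which was one of 3 members, with Kif18b and Rfc3, not called on the TPM scale. Leaving out any single library kept all 17 called lower, with medians from -2.96 to -2.36.

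Several mitotic transcripts were lower still in SEN. The SEN libraries, whose comparison with MT_0.25% uses the same myotube libraries, held 1.37, 1.89 and 1.77 normalised CPM of Ccnb1, and MT_0.25% was higher (log2 fold change 3.000, edgeR adjusted p = 7.0e-09). The same was measured for Ccnb3 (SEN 1.76, 3.22 and 2.35, MT_0.25% 9.55, 16.6 and 14.01, log2 fold change 2.46, edgeR adjusted p = 3.4e-08) and for Cdc20 (SEN 2.16, 4.69 and 3.33, log2 fold change 2.04, edgeR adjusted p = 4.1e-05). Of the 17 members, 9 were called higher in MT_0.25% than in SEN and 1, the kinetochore protein Spc24, lower, against 25.5% and 26.9% of all transcripts. Within the myotubes these transcripts were highest in MT_0.25% 2, as above, and the part of mononucleate cells remaining after filtering was not tested.

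**Figure D4:**
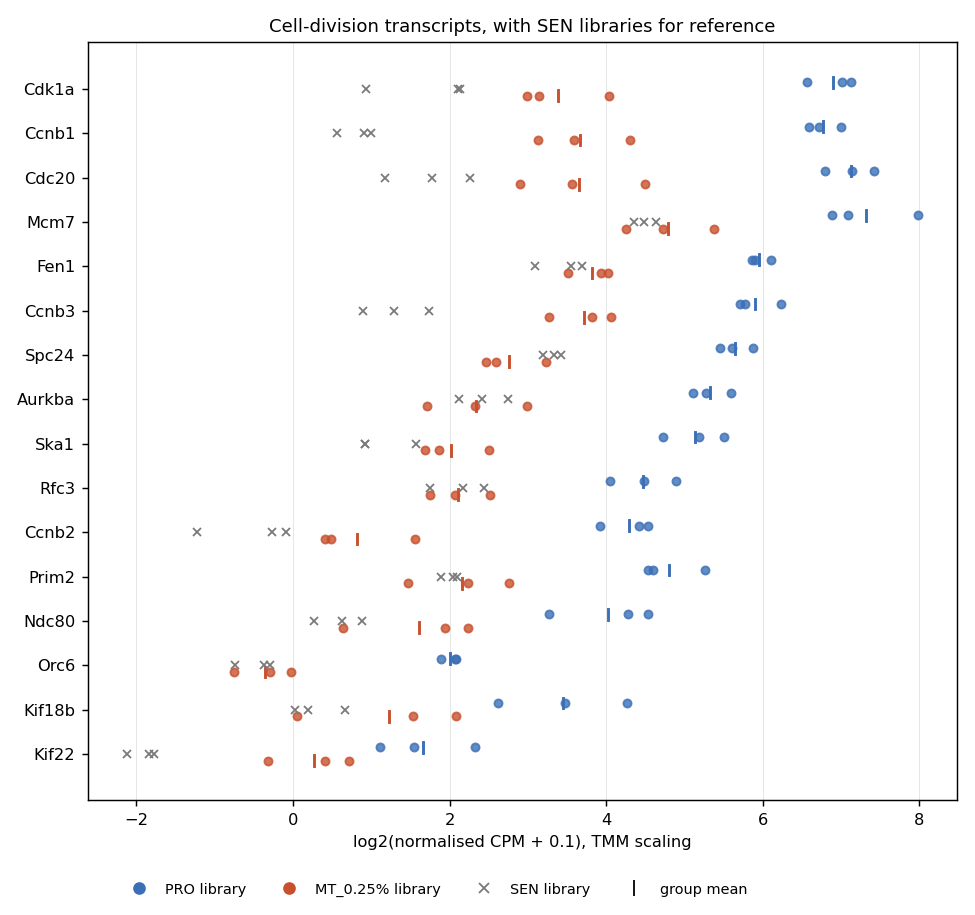
Level of 16 cell-division transcripts in each library, as log2(normalised CPM + 0.1), for PRO (blue), MT_0.25% (red) and SEN (grey crosses), with vertical bars at the PRO and MT_0.25% means of the log2 values. Every MT_0.25% library lay below every PRO library, which held for 30.7% of all transcripts, and for Ccnb1, Ccnb3 and Cdc20 the SEN libraries lay lower still.

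Of 15 members of the senescence panel 14 were tested, and 6 were called higher, 5 lower and 3 not at all, shares close to those of all transcripts (38.0% higher, 31.7% lower). Lower in MT_0.25% were Il18 (comp47215_c0_seq1), an interleukin released by inflammasomes (19.4, 16.8 and 14.8 to 3.54, 5.35 and 3.77 normalised CPM, log2 fold change -2.01 ± 0.21 SE, edgeR adjusted p = 3.9e-08), and Hmgb1 (comp1509_c0_seq1), a chromatin protein that is also an alarmin (199.9, 247 and 227 to 64.9, 68.3 and 51, log2 fold change -1.87 ± 0.18 SE, edgeR adjusted p = 1.8e-08). Csf1 (comp34820_c0_seq1), the macrophage growth factor, was at 26.6, 23.7 and 12.4 in PRO and 2.498, 10.99 and 9.83 in MT_0.25% (log2 fold change -1.42 ± 0.52 SE, edgeR adjusted p = 0.019), with MT_0.25% 1 well below the other myotube libraries, and was not called on the TPM scale. Its call was lost without PRO 1 (log2 fold change -1.21) or MT_0.25% 1 (-1.03). Lamin B1 (comp23366_c0_seq1), whose loss is used as a mark of senescence, overlapped between groups (17.4, 10.1 and 21.2 and 7.55, 14.4 and 9.85, edgeR adjusted p = 0.034) and lost its call without PRO 1, PRO 3, MT_0.25% 1 or MT_0.25% 3 (log2 fold change -0.56, -0.38, -0.45 and -0.55). On the TPM scale Lamin B1 was not called, and its fold change had the other sign (0.60). Higher in MT_0.25% was Il8 (comp11319_c0_seq21), a chemokine, from 1.27, 1.63 and 1.94 to 6.09, 5.002 and 5.43 (log2 fold change 1.77 ± 0.22 SE, edgeR adjusted p = 5.7e-07). The cytokine Il6 (comp1319999_c0_seq1) rose from 0.478, 0.258 and 0.273 to 1.67, 1.37 and 2.55 (log2 fold change 2.44 ± 0.40 SE, edgeR adjusted p = 1.9e-05), and the repair ligase Lig4 (comp214483_c0_seq1) from 0.319, 0.602 and 0.409 to 1.95, 1.71 and 1.81 (log2 fold change 2.06 ± 0.35 SE, edgeR adjusted p = 2.5e-05), both from fewer than 40 reads over the PRO libraries.

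Falling transcripts carried a name only through the SEN table or the study's panels, so other falls were not ranked. Among transcripts with a descriptive name, the largest fall was that of Timp1.1 (comp6073_c0_seq1), a tissue inhibitor of metalloproteinases. With 7674 ± 2278 TPM (SD, n = 3) in PRO, it went from 26102, 23629 and 16624 normalised CPM to 103, 305 and 221 (log2 fold change -6.72 ± 0.41 SE, edgeR adjusted p = 1.8e-11). All 3 myotube libraries were far below PRO, with MT_0.25% 1 lowest. In SEN it was at 7142, 5477 and 6096 normalised CPM, above MT_0.25% (log2 fold change -4.895, edgeR adjusted p = 8.3e-10). The collagenase Mmp9th (comp4145_c0_seq1) fell from 753, 724 and 381 to 31.5, 68.1 and 55.9 (log2 fold change -3.58 ± 0.35 SE, edgeR adjusted p = 2.0e-08) and the stromelysin Mmp3/10a (comp19400_c0_seq1) from 18.9, 24.6 and 14.1 to 0.3904, 0.578 and 0.523 (log2 fold change -5.23 ± 0.33 SE, edgeR adjusted p = 4.0e-11), both also lower on the TPM scale. Its relative Mmp3/10b (comp94697_c0_seq1) rose instead, from 1.43, 1.03 and 1.47 to 15.3, 11.2 and 14.1 (log2 fold change 3.36 ± 0.24 SE, edgeR adjusted p = 2.1e-10), so these 2 stromelysins moved in opposite directions with no overlap of the libraries for either. Coagulation factor XI (F11, comp338_c0_seq4) fell from 19.5, 22.2 and 15.8 to 0.755, 1.08 and 0.816 (log2 fold change -4.42 ± 0.38 SE, edgeR adjusted p = 2.5e-09), whereas factor X (F10, comp7233_c0_seq1) rose from 35.4, 46.5 and 36.8 to 131, 87.3 and 87.7 (log2 fold change 1.36 ± 0.21 SE, edgeR adjusted p = 8.7e-06). Over the panel of 10 proteases and inhibitors, 3 were called higher, 6 lower and 1 not (38.0% higher and 31.7% lower over all transcripts). On the TPM scale 4 were called higher and 5 lower.

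**Figure D5:**
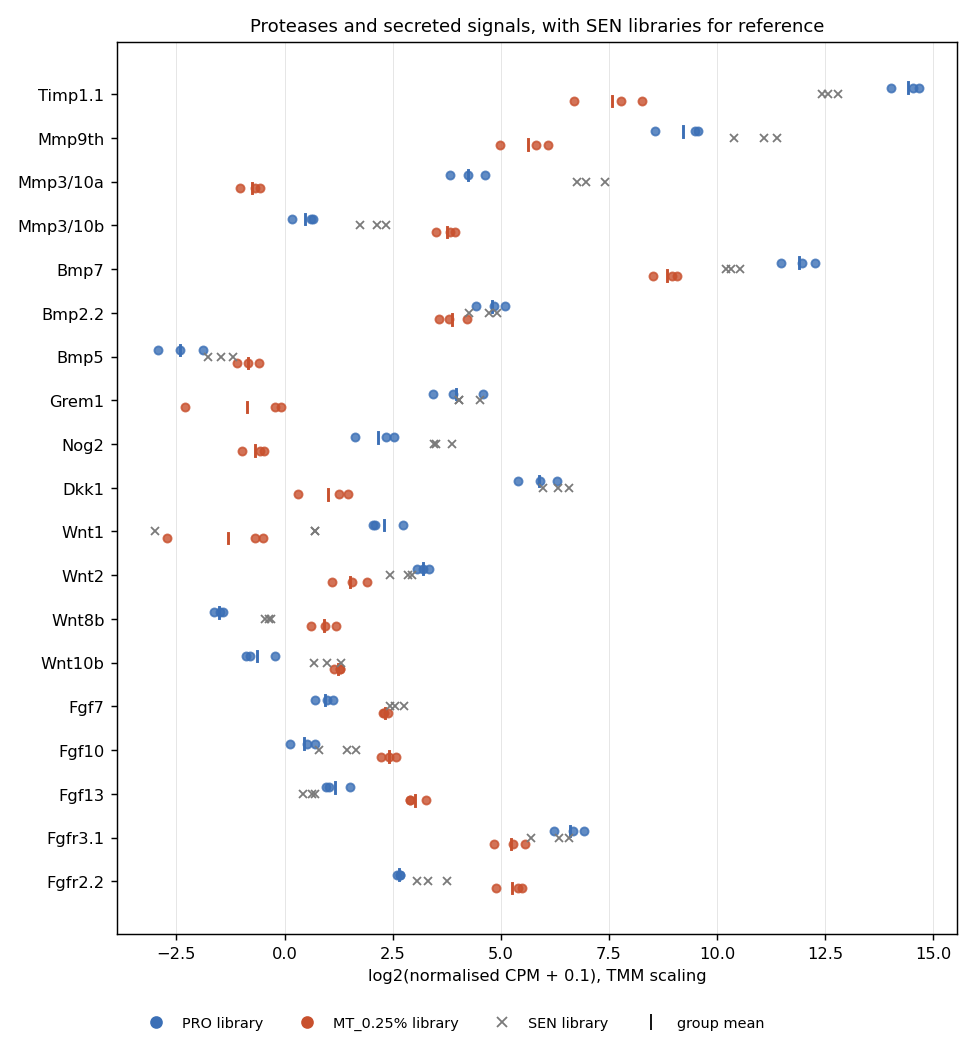
Level of 19 transcripts for proteases, secreted signals, their antagonists and receptors in each library, as log2(normalised CPM + 0.1), for PRO (blue), MT_0.25% (red) and SEN (grey crosses), with vertical bars at the PRO and MT_0.25% means of the log2 values. Timp1.1, Mmp9th, Mmp3/10a, Bmp7, Bmp2.2, Grem1, Nog2, Dkk1, Wnt2 and Fgfr3.1 were lower in every MT_0.25% library than in every PRO and SEN library. Transcripts higher than in both included Mmp3/10b, Wnt8b, Fgf10, Fgf13 and Fgfr2.2.

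Bone morphogenetic proteins are secreted ligands whose reach is limited by antagonists that bind them outside the cell. Of 5 ligands 2 were called higher and 2 lower, where 38.0% and 31.7% of all transcripts were. Bmp7 (comp177537_c1_seq2) made up nearly all the reads of the 5 BMP ligands and fell from 3977, 4944 and 2839.7 to 366, 497 and 536 normalised CPM (log2 fold change -3.07 ± 0.23 SE, edgeR adjusted p = 3.8e-10), also on the TPM scale (limma log2 fold change -1.75, adjusted p = 2.0e-05). This entry is only 102 bases long in every library compared, and its name rests on the closest hit alone. Bmp2.2 (comp53368_c0_seq1) was lower in edgeR (21.5, 28.6 and 34.1 to 18.6, 13.9 and 11.8, log2 fold change -0.93) but not on the TPM scale (0.34), and Bmp5 (comp651852_c0_seq1) was higher from 8 PRO reads (log2 fold change 2.26 ± 0.50 SE, edgeR adjusted p = 4.5e-04). Of 9 antagonists and receptors tested 2 were called higher and 3 lower, beside the same 38.0% and 31.7% of all transcripts. Grem1 (comp513295_c0_seq1) went from 23.8, 14.9 and 10.6 to 0.104, 0.839 and 0.752 normalised CPM (log2 fold change -4.76 ± 0.45 SE, edgeR adjusted p = 1.3e-08). The noggin transcript Nog2 (comp418778_c0_seq1) was at 5.704, 4.98 and 3 in PRO and 0.573, 0.622 and 0.408 in MT_0.25% (log2 fold change -3.102 ± 0.30 SE, edgeR adjusted p = 1.4e-08). Both were called lower by edgeR and by limma, and each was also lower in MT_0.25% than in SEN (log2 fold changes -4.93 and -4.52). Chordin (comp365346_c1_seq2), another antagonist, was not called (0.319, 0.344 and 0.273 and 0.234, 0.289 and 0.331), and 1 of the receptor entries, Bmpr1b.2, was called higher from 4 PRO reads.

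In the Wnt pathway, where Frizzled receptors and beta-catenin relay the signal, the secreted inhibitor Dkk1 (comp69154_c0_seq1) fell from 60.2, 78.4 and 42.2 to 1.15, 2.65 and 2.28 normalised CPM (log2 fold change -4.87 ± 0.31 SE, edgeR adjusted p = 4.2e-11), below its level in SEN as well (95.03, 80.5 and 63.3, log2 fold change -5.27). A beta-catenin entry (Ctnnb1.s.2, comp3411_c0_seq2) rose from 68.95, 70.2 and 83.7 to 139.9, 172 and 126 (log2 fold change 0.98 ± 0.19 SE, edgeR adjusted p = 1.1e-04) and the feedback target Axin2 (comp68178_c1_seq9) from 0.828, 0.945 and 0.7501 to 1.59, 1.605 and 1.47 (log2 fold change 0.89 ± 0.26 SE, edgeR adjusted p = 0.0047), though Axin2 was not called on the TPM scale. A second beta-catenin entry was not called. The 17 Wnt ligands divided. Of 12 tested, 7 were called higher, 3 lower and 2 not (38.0% higher and 31.7% lower over all transcripts). Their sum overlapped between groups (46.1, 43.1 and 65.9 normalised CPM in PRO, 46.3, 48.7 and 44.3 in MT_0.25%, two-sided exact permutation p = 0.9). Wnt1 (comp1038233_c0_seq1) fell from 4.17, 4.04 and 6.55 to 0.5205, 0.607 and 0.05099 (log2 fold change -3.696 ± 0.79 SE, edgeR adjusted p = 3.3e-04), with only 4 reads in MT_0.25% 3, and Wnt2 (comp4899550_c0_seq1) from 8.32, 9.97 and 9.14 to 3.64, 2.85 and 2.05 (log2 fold change -1.69 ± 0.26 SE, edgeR adjusted p = 9.9e-06). Wnt8b (comp890685_c0_seq1) rose from 0.223, 0.258 and 0.273 to 1.43, 1.81 and 2.17 (log2 fold change 2.84 ± 0.39 SE, edgeR adjusted p = 1.8e-06) and Wnt10b (comp69567_c0_seq4) from 0.765, 0.473 and 0.443 to 2.32, 2.33 and 2.12 (log2 fold change 1.99 ± 0.37 SE, edgeR adjusted p = 7.6e-05). Wnt2b (comp194260_c0_seq1), the ligand with the highest mean TPM, was at 17.3, 12.9 and 34.9 in PRO, with PRO 3 above the others, and 15.8, 19.8 and 15.8 in MT_0.25%, and was not called in edgeR, whereas limma called it higher on the TPM scale (2.07).

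Secreted fibroblast growth factors can hold myoblasts in proliferation. The FGF family panel had 10 members, of which Fgf12, Fgf13 and Fgf14 are intracellular and not ligands. Of the 10, 8 were tested, and 7 were called higher and 1 (Fgf19) lower (38.0% and 31.7% of all transcripts were). The sum over the family was 13.4, 14.0 and 12.2 normalised CPM in PRO and 30.5, 27.6 and 28.999 in MT_0.25%, without overlap (two-sided exact permutation p = 0.1). Fgf7 (comp115511_c1_seq1) rose from 1.53, 1.89 and 2.08 to 5.13, 4.76 and 4.81 (log2 fold change 1.42 ± 0.19 SE, edgeR adjusted p = 1.3e-06) and Fgf10 (comp249866_c0_seq4), a ligand of limb outgrowth, from 0.988, 1.33 and 1.53 to 5.91, 4.61 and 5.21 (log2 fold change 2.03 ± 0.26 SE, edgeR adjusted p = 8.4e-07). Fgf13 (comp57659_c0_seq49), which binds sodium channels, rose from 2.77, 1.93 and 1.84 to 9.58, 7.32 and 7.32 (log2 fold change 1.88 ± 0.23 SE, edgeR adjusted p = 4.5e-07). Fgf8 (comp1757491_c0_seq1) was higher by less, 2.01, 2.62 and 1.84 to 3.07, 3.701 and 3.58 (edgeR adjusted p = 0.019), and lost the call without PRO 1, PRO 3 or MT_0.25% 2 (log2 fold change 0.63, 0.58 and 0.63). The call of Fgf19 was lost without PRO 1, PRO 2 or MT_0.25% 1 (log2 fold change -0.77, -0.80 and -0.69). On the TPM scale Fgf19 was not called, and its fold change had the other sign. Of 5 receptors 2 were called higher and 2 lower, beside the same 38.0% and 31.7% of all transcripts. Fgfr3.1 (comp9242_c2_seq19) fell from 74.98, 101 and 121 to 46.8, 38.7 and 28.7 (log2 fold change -1.38 ± 0.24 SE, edgeR adjusted p = 3.2e-05), but not on the TPM scale (-0.05), while Fgfr2.2 (comp70016_c0_seq3) rose from 5.96, 6.27 and 6.24 to 29.5, 42.4 and 45.1 (log2 fold change 2.66 ± 0.22 SE, edgeR adjusted p = 1.2e-09) and Fgfr2.1 (comp24167_c0_seq1) from 2.07, 2.23 and 1.81 to 6.298, 7.16 and 7.71 (log2 fold change 1.795 ± 0.20 SE, edgeR adjusted p = 1.4e-07). The sum of the 5 receptors overlapped between the groups (85.8, 112 and 131 normalised CPM in PRO, 83.5, 90.1 and 82.9 in MT_0.25%, p = 0.2 in the same exact permutation test).

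Downstream of these receptors, the ERK panel of 10 transcripts held 3 called higher, 4 lower and 3 not called, close to the shares of all transcripts (38.0% and 31.7%), and on the TPM scale 7 were called higher and 1 lower. Map3k7 (comp19277_c0_seq1), a kinase of TGF-beta and stress signalling, rose from 30.2, 36.6 and 29.8 to 273, 176 and 150.2 normalised CPM (log2 fold change 2.63 ± 0.24 SE, edgeR adjusted p = 6.9e-09). Hras (comp72887_c0_seq1) fell from 4.46, 7.18 and 5.39 to 2.76, 2.39 and 1.72 (log2 fold change -1.31 ± 0.24 SE, edgeR adjusted p = 6.4e-05) and Jund (comp7301_c1_seq1), a subunit of the AP-1 transcription factor, from 24.8, 22.6 and 19.6 to 13.1, 12.6 and 11.8 (log2 fold change -0.84 ± 0.18 SE, edgeR adjusted p = 3.2e-04), but neither was called on the TPM scale (-0.02 and 0.199).

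Transcripts whose closest hit is a transposable element were called higher for 28 of 32 members and lower for 2, with a median log2 fold change of 3.15 (3.00 with the member at 0 reads in PRO at its bound). Of all transcripts, 38.0% were called higher and 31.7% lower. Names of 17 of the 32 appear in the MT_0.25% table, which fixed their direction. Names of 17 appear in the SEN table, some of them in both, and that table favours transcripts low in PRO. The entry matching a polyprotein of an R2 retrotransposon in a liver fluke (comp1639906_c0_seq1) rose from 8.19, 6.19 and 9.41 to 276, 209 and 256 normalised CPM (log2 fold change 4.96 ± 0.23 SE, edgeR adjusted p = 3.2e-13), and a CR1 entry (comp1752635_c0_seq1) from 0.637, 0.988 and 0.511 to 32.6, 15.2 and 13.4 (log2 fold change 4.86 ± 0.41 SE, edgeR adjusted p = 2.2e-09). A LINE-1 entry named through the SEN table (comp1899646_c0_seq1) rose from 21.4, 14.4 and 39.1 to 47.9, 71.9 and 72.3 (log2 fold change 1.36 ± 0.35 SE, edgeR adjusted p = 0.0018). Both members called lower had envelope genes of endogenous retroviruses as their hits, and neither was called on the TPM scale. One (comp244745_c0_seq1) went from 20.6, 19.7 and 9.96 to 2.26, 7.04 and 5.65 (log2 fold change -1.73 ± 0.35 SE, edgeR adjusted p = 1.7e-04), and the other (comp873220_c0_seq1) overlapped between groups, lost its call without PRO 1, PRO 3, MT_0.25% 1 or MT_0.25% 3 (log2 fold change -0.67, -0.53, -0.51 and -0.77) and turned direction on the TPM scale (0.39).

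Transcripts whose closest hit is a protein of another kind of organism were also higher in MT_0.25%. Of 43 with a bacterial hit 35 were tested and 32 called higher, and 9 had no read in PRO. Of 38 with a flatworm or protist hit 34 were tested and 33 called higher, where 38.0% of all transcripts were. Summed over the members, the bacterial hits held 19.4, 18.5 and 14.1 normalised CPM in PRO and 72.0, 71.4 and 82.6 in MT_0.25%, and the flatworm or protist hits 56.4, 55.9 and 46.6 against 841, 709 and 880.2. The largest contributor to the flatworm or protist sum was an entry with a Musashi-type RNA-binding protein as its hit (comp1157911_c0_seq1), at 34.1, 33.8 and 24.9 and 455, 404 and 521 (log2 fold change 3.895 ± 0.23 SE, edgeR adjusted p = 1.3e-11). The organism a transcript came from was not examined, and 30 of the 43 and 25 of the 38 names appear in the MT_0.25% table, which fixed their direction.

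Among non-overlapping transcripts with a descriptive name and a mean of at least 50 reads in whichever group was higher, the 8 largest rises by fitted fold change were the muscle-related coiled-coil protein, the myosin light chain kinase 3 hit, titin, Myh3.1, slow myosin-binding protein C, Symhc1.1, the Dnajc1 hit and, apart from this order, an uncharacterised zebrafish protein hit (comp6221_c0_seq3). Of 21 members of the study's differentiation panel, most of them myosin heavy chains, 17 were tested, 16 were called higher and Myf5 lower, with a median log2 fold change of 4.07 (3.72 with the member at 0 reads in PRO at its bound). The shares over all transcripts were 38.0% higher and 31.7% lower. Myosin heavy chain entries resemble each other, so reads may be shared between them. Myh3.1 (comp9855_c0_seq1), an embryonic type of myosin heavy chain, was at 0.191, 0.301 and 0.239 in PRO and 239, 166 and 209.9 in MT_0.25% (log2 fold change 9.73 ± 0.43 SE, edgeR adjusted p = 1.7e-13), and Symhc1.1 (comp2444_c1_seq1), a slow type, at 0.0637, 0.129 and 0.341 and 152, 115 and 140.7 (log2 fold change 9.55 ± 0.35 SE, edgeR adjusted p = 1.9e-14). The fitted value of the uncharacterised hit rests on 0 PRO reads and its bound would put it below the others. It had no PRO read and 90, 144 and 265 reads in MT_0.25%, at least 23.9-fold higher against a floor of 3 reads per library. The 8 largest falls, of transcripts named only in the SEN table or the study's panels, included Timp1.1, Mmp3/10a, a tyrosinase, Dkk1, Grem1, F11 and Wnt1. Tyrosinase (comp7760_c0_seq1), the enzyme of melanin synthesis, was low throughout, at 4.01, 1.72 and 2.42 normalised CPM in PRO and 0.0781, 0.101 and 0.0765 in MT_0.25% (log2 fold change -4.95 ± 0.47 SE, edgeR adjusted p = 1.4e-08).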

How the data were processed

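RNA-seq libraries of total RNA were made with a tagmentation kit, and a genome centre in Dresden did the cDNA synthesis and sequencing. Per the study's methods and the labels, reads were trimmed with Trim Galore, examined with FastQC and quantified with Sailfish against a de novo Notophthalmus viridescens transcriptome, and differential expression was tested by the authors with DESeq2. For these tools the sources used here give no version. The authors deposited, for each library, estimated counts (expected reads per entry, isoforms joined) and TPM, the length-scaled abundance. Here the deposited expected counts were rounded to whole numbers and the deposited TPM values were used as given. The deposited effective lengths were not used.

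Entries with enough reads by the default expression filter of edgeR were kept, libraries were scaled by TMM and MT_0.25% was contrasted with PRO in a quasi-likelihood fit of all 18 libraries in 6 groups (R 4.3.3, edgeR 4.0.16), with Benjamini-Hochberg adjustment over all 23107 entries. limma 3.58.1 on log2(TPM + 1), where fold changes of low transcripts are understated, DESeq2 1.42.0, RLE scaling, no expression filter, the 6 libraries alone, a replicate block, and each library left out in turn served as alternatives. The fit was also run on simulated data with 200 changed entries, equally many up and down. Few entries change in that setting and rises balance falls, so it cannot test the scaling of the libraries compared here. Summed lists were compared by exact permutation (Python 3.11.15, pandas 2.3.3, scipy 1.17.1). A floor of 3 reads per library gave lower bounds for transcripts at 0 reads. Depth was 35247127 to 52015212 estimated reads per library, and replicates differed beyond counting error, so none was merged.

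The members and lists were chosen with earlier results of these data known. In each list the text names the 4 members of highest mean TPM and up to 5 members called against the majority or not called, and over all transcripts with a descriptive name the 8 largest rises and falls with at least 50 mean reads and no overlap. Smyd1, Tead4, Mef2a, mitsugumin 29, integrin alpha 6, integrin alpha 11, a second enolase, Il6, Il8, Lig4, Csf1, Fen1, Kif22, Kif18b, Rfc3, Spc24, Ccnb3, Nog2, Wnt8b and Wnt10b were named after their values were seen. Some members are counted in the lists but are not reported here by name.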

Additional observations from a re-analysis of the deposited data

How the results depend on the processing

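Of the alternatives, limma on TPM moved the counts by over 1.5 times, and it changes the model, the length division and the scaling together. RLE scaling gave 8360 transcripts higher and 7747 lower (51.9% of calls higher), DESeq2 8308 and 7790 (51.6%), no expression filter 9225 and 7428 (55.4%), and the 6 libraries alone 8386 and 6940 (54.7%), against 8779 and 7335 (54.5%). limma gave 15527 higher and 1878 lower (89.2%) on log2(TPM + 1), and 15654 and 1834 (89.5%) on log2(TPM + 0.1); the cause was not tested. Without 1 library the counts ran from 7993 to 8573 higher and from 6676 to 7217 lower, with 53.4% to 54.8% of calls higher.

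With the replicate number as a block in the edgeR fit, 8730 transcripts were higher and 7282 lower (54.5%), and the call of 0 of 152 named transcripts changed. Deviations of same-numbered PRO and MT_0.25% libraries correlated at -0.21, -0.07 and -0.16. Taken from means of 3 libraries per group, these values cannot show whether the numbers pair the samples.

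Of the 152 named transcripts, 101 kept their call under every alternative, 19 lost it and 25 gained one under at least 1 alternative, and the fold change of 11 turned sign. Among these 11, only the enolase entry, AMP deaminase and procollagen lysyl hydroxylase 1 were called in the new direction. The others were not called by limma. On log2(TPM + 1) and log2(TPM + 0.1), respectively, the log2 fold change of those that turned was 0.0350 and 0.0352 for Myf5, 0.60 and 0.71 for Lmnb1, 0.44 and 0.86 for Fgf19, 0.0327 and 0.0162 for Fgfr1, 0.34 and 0.35 for Bmp2.2, 0.20 and 0.21 for Jund, 0.93 and 1.22 for the enolase comp8911629_c0_seq1, 0.72 and 1.16 for AMP deaminase, 0.54 and 0.64 for procollagen lysyl hydroxylase 1, 0.39 and 0.41 for the retroviral envelope hit comp873220_c0_seq1, and 0.0138 and 0.0137 for Rfc3. List medians turned to 0.0584 and 0.33 for BMP antagonists and receptors and to 0.60 and 1.05 for the ERK panel under the same 2 settings, to 0.0377 for proteases on log2(TPM + 0.1), to 0.0155 for the ERK panel without PRO replicate 3 (its range without 1 library was -0.145 to 0.0155) and to -0.39 for the senescence panel with the 6 libraries alone. Summed CPM without TMM scaling turned to 1.56-fold for FGF receptors and 1.78-fold for Wnt ligands. Without some library, calls changed for 12 named transcripts. Among those not given above were Fgfr1 (lost without PRO 1, PRO 2, MT_0.25% 1 or MT_0.25% 3, -0.93, -1.04, -0.89 and -1.05), Wnt7b (lost without the same libraries, 0.39, 0.41, 0.40 and 0.36), Timp1.3 (gained without PRO 1, -1.20) and an atypical protein kinase C hit (gained without PRO 3, 1.51).

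The MT_0.25% against SEN values, the list counts without each library and the placing of unread members at their bound were chosen after seeing the data. Transcripts with under 10 reads in PRO give folds of low precision. The SE values come from the edgeR fit and rest on the spread between libraries, whereas floors cover counting error only.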
